A study of Homo sapiens with 6 samples.

Results

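The genes described here are 31 genes of fatty acid oxidation and ketone body metabolism, taken by symbol out of 27689 gene symbols measured by RNA sequencing in cells labelled Huh7, a human hepatocellular carcinoma line. They cover the carnitine shuttle, mitochondrial and peroxisomal beta-oxidation, electron transfer from it, 1 ketone body enzyme, and the PPARA control of these genes with PPARA targets. The study examined RNA after knockdown of NACER, a long non-coding RNA that the series title calls liver-specific. There were 3 libraries labelled NC and 3 labelled NACER_ASO, and each of sets 2, 5 and 6 held 1 of either group. The labels give no other treatment, time or dose, and do not say what a set is. NACER's own level was not analysed, which leaves the knockdown itself unchecked.

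Fatty acids enter mitochondria as carnitine esters and are shortened by cycles of dehydrogenation, hydration, a further dehydrogenation and thiolysis, which release acetyl-CoA. Hepatocytes turn much of that acetyl-CoA into ketone bodies during fasting, and peroxisomes shorten very long and branched chains. PPARA, a nuclear receptor for fatty acids, switches on many of these genes in liver together with its coactivator PPARGC1A.

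Hepatocyte markers were present in every set, but the sets were not alike. All 10 hepatocyte and hepatoma markers reached 1 FPKM (fragments per kilobase of transcript, scaled to each library's fragments) in at least 3 libraries. Their summed FPKM in NC and NACER_ASO was 3212 and 3585 in set 2, 6285 and 6442 in set 5, and 1488 and 1445 in set 6. Albumin lay between 576 and 1242 FPKM, while the fetal marker AFP ran from 224 to 2892 and APOA1 from 5.54 to 516. AFP, at 2728 and 2892, was the largest part of the set 5 sum. Not all 10 markers were highest in set 5: FGB was at 54.1 and 52.8 there against 110 to 189 elsewhere. TTR and GPC3 were highest in set 2. The 2 set 5 libraries stood apart. LUM, a matrix protein of fibroblasts, was at 0 and 0.017 FPKM in set 5 and between 182 and 224 in the other 4 libraries. The summed FPKM of the 5 fibroblast and stellate markers was 1.53 and 1.71 in set 5 against 224 to 263 elsewhere. LYZ, an immune marker, was at 457 and 479 FPKM in set 5 against 27.7 to 67.6, while the pan-leukocyte gene PTPRC was at or below 0.95 in all 6. The 4 bile duct markers summed to 247 and 261 in set 5 against 118 to 161, but did not go one way: KRT19 was at 1.15 and 2.60 in set 5 against 68.0 to 103, and EPCAM at 200.3 and 214 against 18.1 to 32.2. The 4 endothelial markers summed to between 0.455 and 1.09. The part of these marker differences in the set results below was not tested, and in bulk RNA fewer cells of a type and less RNA per cell cannot be told apart. Low values implied 15.7 to 28.5 M fragments per library, NC set 2 being the shallowest.

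Transcripts of the oxidation machinery were abundant in all 6 libraries. The 31 genes summed to 794, 1219 and 958 FPKM in NC sets 2, 5 and 6, and to 856, 1286 and 1003 in NACER_ASO, or between 0.181% and 0.280% of all FPKM. ECHS1, the mitochondrial short-chain enoyl-CoA hydratase, and ETFA, a subunit of the flavoprotein that takes electrons from the acyl-CoA dehydrogenases, each averaged 133 FPKM and did not differ in order beyond their spread. The lowest averages were those of the ketone body enzyme BDH1 at 0.757, the pyruvate dehydrogenase kinase PDK4 at 0.969 and PPARGC1A at 2.12. BDH1 was the only gene of the 31 that did not reach 1 FPKM in 3 libraries, so 30 were tested. The plot of every library shows enzymes over about the same range in both groups. Gaps between sets were wide for the control genes and for some others. The highest library was 49.0 times the lowest for PPARGC1A and 3.89 times for PPARA, against 6.09 for EHHADH and 5.22 for SLC25A20.

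**Figure D1:**
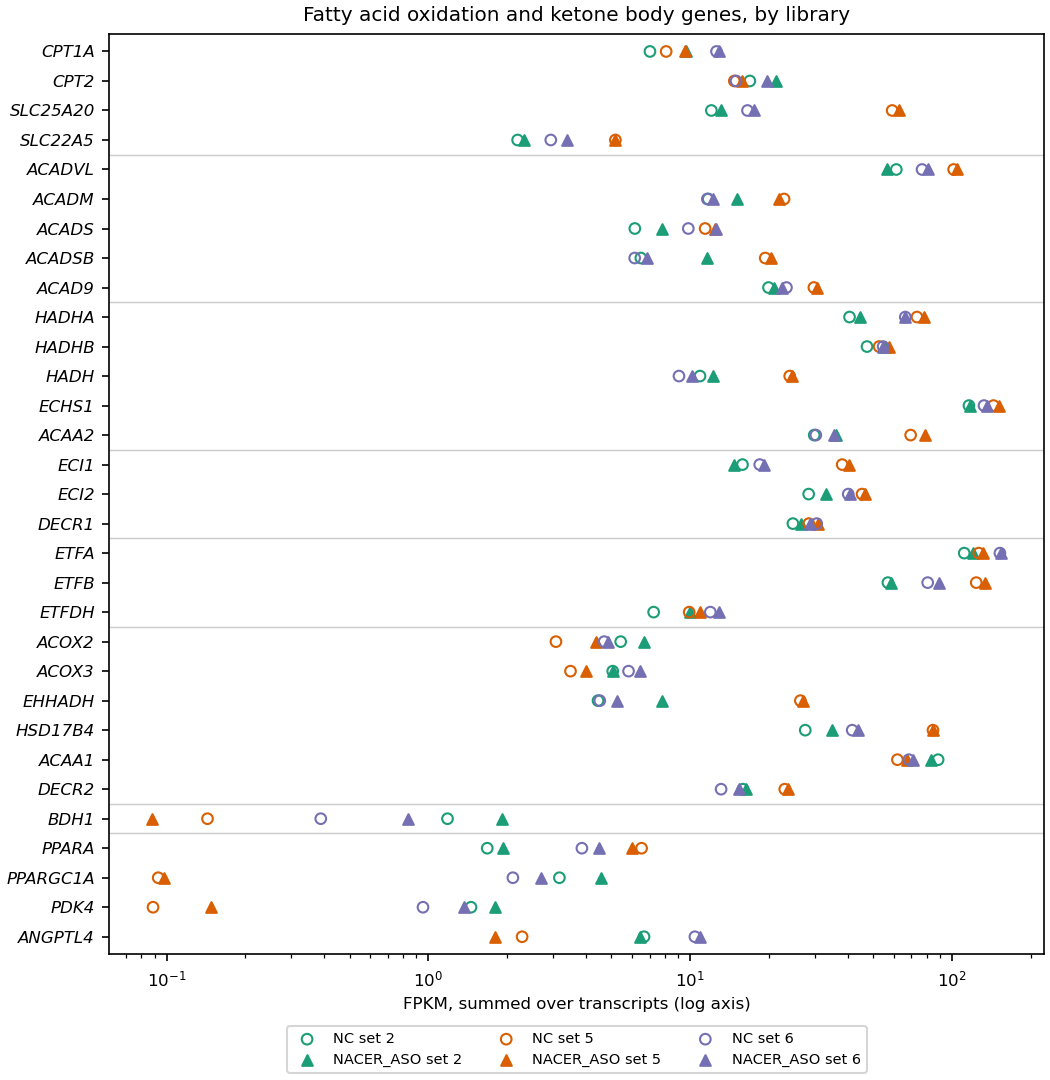
FPKM of each of the 31 genes (log axis, transcripts summed) in the 6 libraries; colour marks the set, open circles NC and triangles NACER_ASO, and grey lines part the roles. Circles and triangles of one colour lie close together, while PPARGC1A and PDK4 in set 5 lie at or below 0.148 FPKM and SLC25A20 and EHHADH in set 5 lie far to the right of the other 4 libraries.

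The first comparison asked how these genes differed between NACER_ASO and NC. In 31 of 31 genes the values of both groups overlapped; over all 13576 genes tested, 1.57% did not overlap. With limma on log2(FPKM + 1) and Benjamini-Hochberg adjustment, 0 of 30 members passed 0.05, against a background of 0% of 13576 genes (smallest adjusted p 0.999994). At an unadjusted p below 0.05 there were 0 members and 20 genes in all. That spread holds the differences between sets, so the intervals are wide.

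Within sets the differences leaned to the NACER_ASO side. The set numbers pair the libraries: after removal of the group means, the residuals of same-set libraries had a correlation over genes of 0.90, 0.97 and 0.90. Those of different sets lay between -0.70 and 0.06. Removing the group means itself pushes these down, so they are no separate evidence of pairing. NACER_ASO lay on the higher side in all 3 sets for 19 of 31 genes, where 27.2% of all genes did, and on the lower side in all 3 sets for 0 of 31, where 11% did. By set, 27, 26 and 27 of the 31 lay on the higher side in sets 2, 5 and 6, against 59.1%, 54.5% and 62.9% of all genes. In sets 2 and 6 together it was 23 of 31, against 38.8%, a count added after the data were seen. The median difference over the 30 was 0.09 on the log2 scale, against 0.04 over all genes. These counts depended on the scaling between libraries. With median-of-ratios scaling, 8 of 31 lay on the higher side in all sets (15.5% of all genes) and 1 on the lower (21.0%). In set 6 by itself, 14 of 31 then lay on the higher side, where 42.1% of all genes did.

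A fit with the set number as a replicate block also called 0 of 30 members and 0% of all genes. It gave an unadjusted p below 0.05 to 3 of 30 members and to 1685 of 13576 genes. Those 3 members were ACAA2, CPT2 and ACADS, each on the higher side, and the smallest member adjusted p was 0.322.

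CPT1A, the outer membrane enzyme that makes acylcarnitines and sets the rate of the pathway, spans chromosome 11 from 68522088 to 68609399 (hg19). It was at 7.02, 8.10 and 12.6 FPKM in NC sets 2, 5 and 6 and at 9.64, 9.54 and 12.9 in NACER_ASO. NACER_ASO was the higher library of every set, by the least in set 6, and the groups overlapped. The means were 9.24 ± 2.96 (SD, n = 3) and 10.7 ± 1.92, and the log2 difference of 0.22 had a 95% confidence interval from -0.44 to 0.88 in limma, narrowing to between -0.02 and 0.45 with the replicate block. CPT2, the inner membrane partner that returns the acyl group to CoA, was at 16.9, 14.7 and 15 in NC and at 21.3, 15.8 and 19.6 in NACER_ASO. Its NACER_ASO values were the higher of each set, and 1 of them, in set 5, lay below NC of set 2. Its log2 difference was 0.26 (SE 0.192; 0.0794 with the replicate block, adjusted p = 0.338 by limma).

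Among the mitochondrial enzymes, ACAA2, the thiolase that cuts off acetyl-CoA, was at 29.8, 69.5 and 30.2 FPKM in NC and at 36.2, 78.6 and 35.4 in NACER_ASO. It kept nearly the same distance in every set, with log2 differences of 0.27, 0.17 and 0.22, while set 5 lay far above the other sets. ACADS, the short-chain acyl-CoA dehydrogenase, was at 6.15, 11.4 and 9.84 in NC and at 7.82, 12.5 and 12.6 in NACER_ASO. ACADSB, its relative for short branched chains, was at 6.48, 19.4 and 6.14 in NC and at 11.6, 20.3 and 6.83 in NACER_ASO. The ACADSB difference was mostly that of set 2, where it reached 0.75, and was 0.06 and 0.13 in sets 5 and 6. ETFDH, which passes the electrons on to ubiquinone, was at 7.25, 9.91 and 11.9 in NC and at 9.96, 10.9 and 12.9 in NACER_ASO. The isomerase ECI2, which handles double bonds of unsaturated chains, differed by 0.21 in set 2 and by 0.04 and 0.02 in sets 5 and 6.

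EHHADH, the peroxisomal bifunctional enzyme, had a pattern like that of ACADSB. It was at 4.45, 26.4 and 4.51 FPKM in NC and at 7.83, 27.1 and 5.23 in NACER_ASO, so set 2 gave most of its difference. ACOX2, the peroxisomal oxidase of branched chains and bile acid intermediates, was at 5.43, 3.07 and 4.69 in NC and at 6.67, 4.36 and 4.86 in NACER_ASO, with its widest gap in set 5. Over all 31 genes and 3 sets, 2 of 93 within-set differences were above 0.5, those of ACADSB and EHHADH in set 2. With 1 library per group in a set, a difference in response between sets could not be tested.

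The control genes did not share a direction. PPARA was at 1.68, 6.52 and 3.86 FPKM in NC and at 1.92, 6.0 and 4.49 in NACER_ASO, on the lower side in set 5 alone. PPARGC1A was at 3.17, 0.093 and 2.10 in NC and at 4.56, 0.098 and 2.70 in NACER_ASO. ANGPTL4, a secreted inhibitor of lipoprotein lipase and a PPAR target, was at 6.66, 2.28 and 10.4 in NC and at 6.44, 1.80 and 10.9 in NACER_ASO. Its NACER_ASO value was below NC in sets 2 and 5 and above it in set 6. PDK4, which turns off pyruvate oxidation when fat is burnt, was at 1.45, 0.089 and 0.954 in NC and at 1.80, 0.148 and 1.37 in NACER_ASO. BDH1, the mitochondrial dehydrogenase between acetoacetate and hydroxybutyrate, was at 1.18, 0.143 and 0.388 in NC and at 1.90, 0.088 and 0.835 in NACER_ASO. At these levels PDK4, BDH1 and, in set 5, PPARGC1A rest on few fragments.

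**Figure D2:**
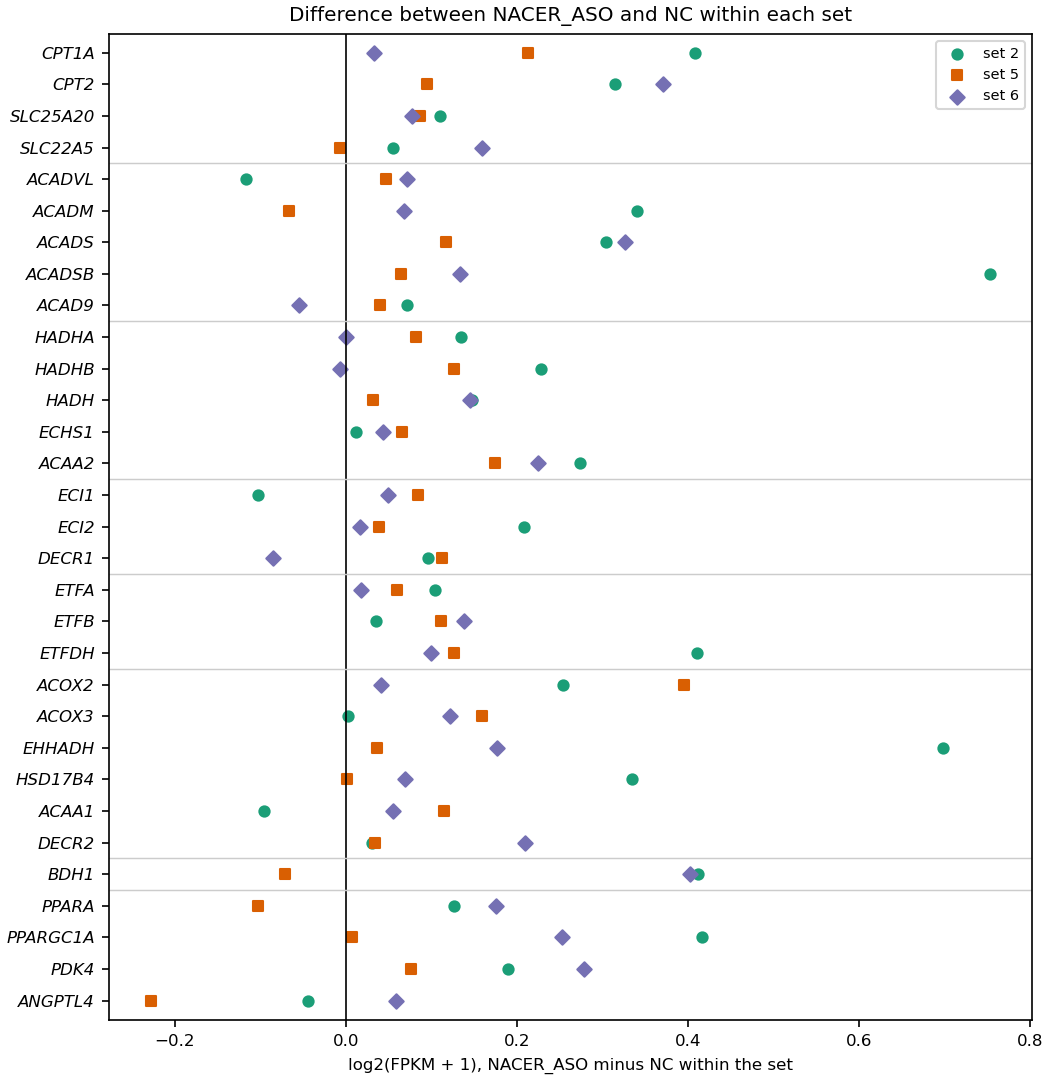
Difference of log2(FPKM + 1), NACER_ASO minus NC, of the 31 genes within each set; each point is 1 library against 1 library, with no error bar. Most points lie right of 0, the 2 farthest being ACADSB and EHHADH in set 2, and ANGPTL4 in set 5 lies farthest left at -0.23.

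The second comparison set the 2 libraries of set 5 against the 4 of sets 2 and 6, with treatment as a term. Most beta-oxidation enzymes were higher in set 5, up to 4.35-fold on the log2(FPKM + 1) scale, and PPARA was higher with them, while PPARGC1A, PDK4 and ANGPTL4 were lower. In limma 24 of 30 members passed an adjusted p of 0.05, where 70.7% of all genes did: 18 were higher, against 24.1% of all genes, and 6 lower, against 46.6%. The median member differed by 0.43 and the median of all genes by -0.22. Each p-value here measures how unequally NACER_ASO and NC differed across the sets, on 2 residual degrees of freedom before moderation by limma. The labels do not call the libraries separate cultures, and the p-values may be too small. Median-of-ratios scaling moved the median of all genes to -0.0075 and the share of higher genes among those called from 34.1% to 49.7%. It called 69.1% of all genes, and gave 21 members higher and 4 lower.

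In the carnitine shuttle, SLC25A20, the carrier that swaps acylcarnitine for carnitine across the inner membrane (chromosome 3, 48894356 to 48936426, hg19), was at 59.1 and 62.9 FPKM in NC and NACER_ASO of set 5. It was at 12.0 and 13.1 in set 2 and at 16.6 and 17.5 in set 6. Both set 5 libraries lay well above the other 4, with a log2 difference of 1.99 (SE 0.0627, adjusted p = 5.93e-06 by limma), or 2.21 relative to the median of all genes. The plasma membrane carnitine transporter SLC22A5 was also higher in set 5, at 5.18 and 5.15 against 2.19 to 3.39. CPT1A, at -0.20, was not called, and its sign turned with median-of-ratios or quantile scaling; without the NC library of set 2 it was called lower at -0.27. CPT2, at 14.7 and 15.8 in set 5 against 15 to 21.3, was not called either.

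All 5 acyl-CoA dehydrogenases, which open each cycle, were higher in set 5. ACADVL, for very long chains, was at 101.5 and 105 FPKM in set 5 against 56.5 to 80.8 elsewhere, a log2 difference of 0.59 (SE 0.066, adjusted p = 0.000456 by limma). ACADM, for medium chains, was at 22.8 and 21.8 against 11.6 to 15.1. ACADSB was at 19.4 and 20.3 against 6.14 to 11.6, a log2 difference of 1.29. ACADS, at 11.4 and 12.5, was called but overlapped the others, since NACER_ASO of set 6 reached 12.6. ACAD9, which also helps to build respiratory complex I, was at 29.7 and 30.6 against 19.9 to 23.3.

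Of the 5 enzymes of the later steps of the mitochondrial cycle, 4 were higher in set 5. ACAA2 was at 69.5 and 78.6 FPKM in set 5 against 29.8 to 36.2, a log2 difference of 1.15 (SE 0.0602, adjusted p = 2.86e-05 by limma). HADH, the dehydrogenase for short and medium hydroxyacyl chains, was at 24 and 24.5 against 9.06 to 12.2, a log2 difference of 1.13. HADHA and HADHB encode the 2 subunits of the trifunctional protein, which share a bidirectional start region on chromosome 2. HADHA was called, at 73.5 and 77.9 against 40.6 to 66.3, with a difference of 0.50. HADHB was not, at 52.7 and 57.6 against 47.4 to 55.7, with a difference of 0.06 and an interval from -0.11 to 0.23. This depended on the scaling: with median-of-ratios scaling HADHB was called higher too, by 0.30. The difference between the subunits was not tested.

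The auxiliary isomerase ECI1 was at 38.1 and 40.4 FPKM in set 5 against 14.7 to 19.1, a log2 difference of 1.17 (SE 0.0723). ECI2 was called higher and the reductase DECR1 was not, though DECR1 was called higher with median-of-ratios scaling. Of the electron transfer flavoprotein subunits, ETFB was at 124 and 134 in set 5 against 56.9 to 89.0, a log2 difference of 0.87. Its partner ETFA, at 127 and 132, lay inside the range of the others, 111 to 154, with a difference of -0.04 (interval -0.18 to 0.10). With median-of-ratios scaling ETFA was called higher, by 0.20. ETFDH was not called, with 9.91 and 10.9 against 7.25 to 12.9.

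The 6 peroxisomal enzymes split evenly, 3 higher and 3 lower. EHHADH (chromosome 3, 184908412 to 184971886, hg19) was at 26.4 and 27.1 FPKM in set 5 against 4.45 to 7.83, with the largest difference of the 30 on the log2(FPKM + 1) scale, though not as a ratio of FPKM, at 2.12 (SE 0.146, adjusted p = 7.04e-05 by limma). HSD17B4, the other bifunctional enzyme, which serves branched chains and bile acid intermediates (chromosome 5, 118788138 to 118878030, hg19), was at 84.6 and 84.7 against 27.5 to 43.7, a difference of 1.20. DECR2, the peroxisomal dienoyl-CoA reductase, was at 23.0 and 23.6 against 13.1 to 16.3. The branched-chain oxidases lay on the other side, ACOX3 at 3.49 and 4.01 against 5.06 to 6.41 and ACOX2 at 3.07 and 4.36 against 4.69 to 6.67. ACAA1, the peroxisomal thiolase, was at 61.9 and 67.1 against 68.4 to 88.5. These 3 lower calls were small: relative to the median of all genes, ACOX3 lay at -0.25, ACOX2 at -0.23 and ACAA1 at -0.04. ACOX2 and ACAA1 lost their call with median-of-ratios scaling and ACOX2 and ACOX3 with quantile normalization. All 3 lost it without the NC library of set 5, and ACAA1 also without its NACER_ASO library, with log2 differences then of -0.42 for ACOX3, -0.32 for ACOX2, and -0.19 and -0.33 for ACAA1.

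PPARA (chromosome 22, 46546499 to 46639653, hg19), at 6.52 and 6.0 FPKM in set 5 against 1.68 to 4.49, was higher by 0.93 (SE 0.107, adjusted p = 0.000509 by limma). PPARGC1A (chromosome 4, 23793644 to 24474452, hg19) went the other way, at 0.093 and 0.098 against 2.10 to 4.56, a log2 difference of -1.88 (SE 0.128, adjusted p = 6.86e-05 by limma). ANGPTL4 (chromosome 19, 8429011 to 8439259, hg19), at 2.28 and 1.80 against 6.44 to 10.9, differed by -1.63, and PDK4, at 0.089 and 0.148 against 0.954 to 1.80, by -1.09. In these 3 genes, and in BDH1, which was not tested, both set 5 libraries lay below all the others. Counting all 31 genes, both set 5 libraries lay above the other 4 in 17 and below them in 7, where 22.7% and 41.1% of all genes did.

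**Figure D3:**
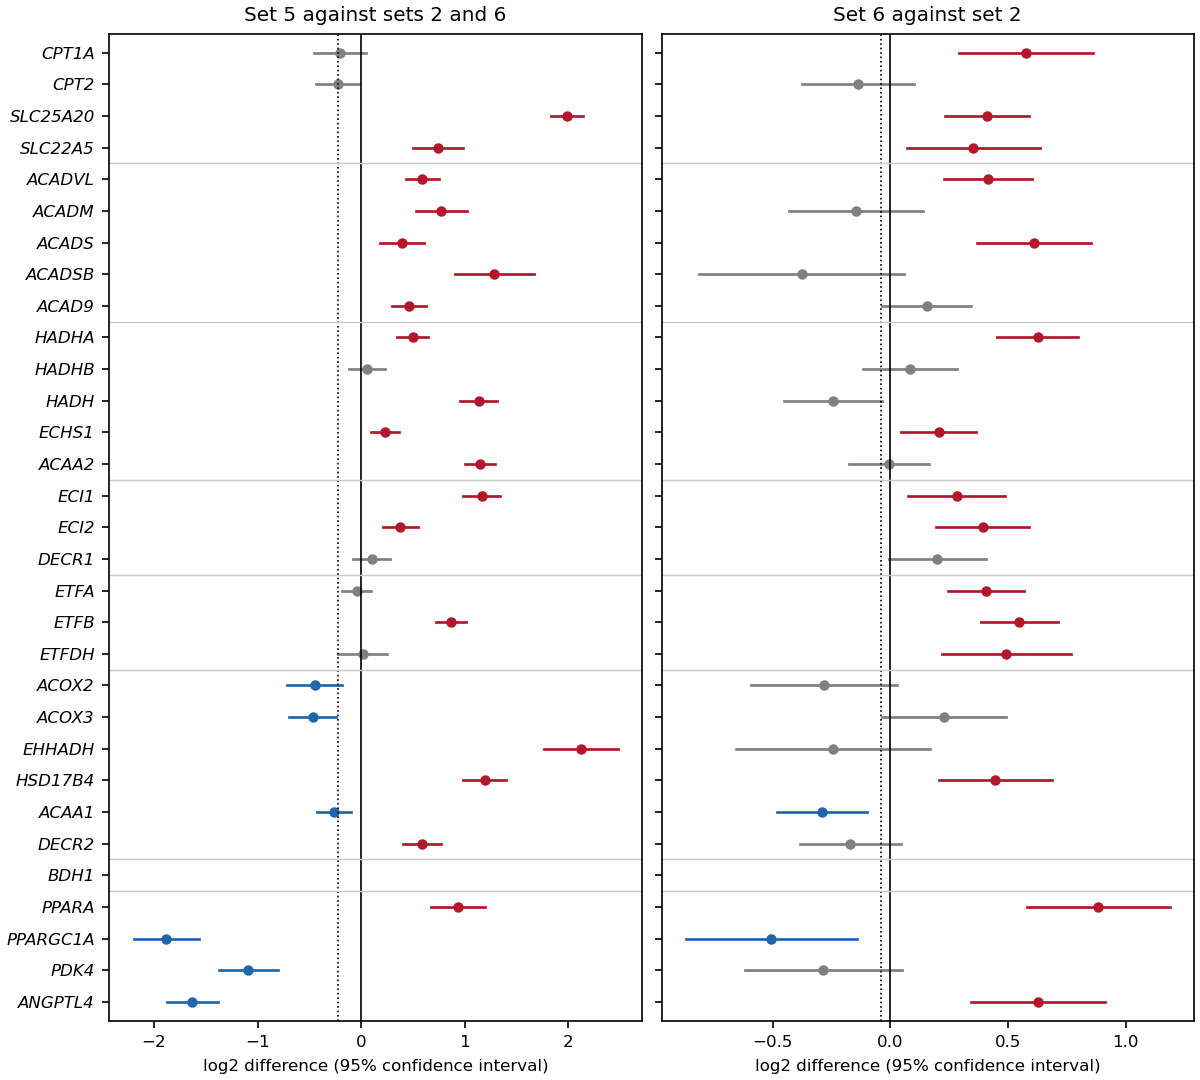
Log2 differences with 95% confidence intervals from limma for the 30 genes tested, set 5 against sets 2 and 6 on the left and set 6 against set 2 on the right; red marks genes called higher, blue lower and grey not called, and the dotted line is the median of all genes. Left, EHHADH at 2.12 and SLC25A20 at 1.99 lie farthest to the right and PPARGC1A at -1.88 farthest to the left; right, PPARA at 0.88 lies farthest to the right.

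The start regions of these genes were read from RefSeq promoters (GRCh38.p14, the 250 bases before the annotated start), which matched 25 of 31 members. The sequence AGGTCA, the half-site bound by PPARA and HNF4A, searched on both strands, was in 0 of 25 member windows and in 12.1% of 27305 promoters. Its direct repeat with a spacing of 1 base (DR1) was in 0 of 25 and in 0.0183% of all. The GC box GGGCGG was in 20 of 25 (80%) against 42.3% of all, and CCAAT in 4 of 25 (16%) against 33.0%. The member windows were also richer in G and C, with a median of 68.8% against 58.0%. The palindrome TGACGTCA, bound by CREB, was in the windows of ACAD9 and ACOX3, or 8% of members against 1.77% of all. A window without the letters says nothing of sites elsewhere, and the annotated start may not be the one used in these cells. The 3 windows below belong to the carrier and the enzyme that were far higher in set 5 and to the PPAR target that was far lower. They hold 3, 1 and 2 GC boxes in the order given, and capitals mark the GC box in either orientation. They lie at chr3:48898883-48899132 (minus strand), chr5:119452247-119452496 (plus strand) and chr19:8363905-8364154 (plus strand).
SLC25A20: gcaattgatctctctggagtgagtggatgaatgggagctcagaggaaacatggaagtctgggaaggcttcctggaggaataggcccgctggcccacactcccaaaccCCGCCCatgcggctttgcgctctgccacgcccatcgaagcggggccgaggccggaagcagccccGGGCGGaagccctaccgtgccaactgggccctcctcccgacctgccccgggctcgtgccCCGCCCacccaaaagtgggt
HSD17B4: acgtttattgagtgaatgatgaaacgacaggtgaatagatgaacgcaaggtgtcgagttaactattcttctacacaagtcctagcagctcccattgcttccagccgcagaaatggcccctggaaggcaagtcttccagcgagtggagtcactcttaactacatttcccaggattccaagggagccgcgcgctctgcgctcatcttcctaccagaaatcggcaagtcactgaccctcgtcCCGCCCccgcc
ANGPTL4: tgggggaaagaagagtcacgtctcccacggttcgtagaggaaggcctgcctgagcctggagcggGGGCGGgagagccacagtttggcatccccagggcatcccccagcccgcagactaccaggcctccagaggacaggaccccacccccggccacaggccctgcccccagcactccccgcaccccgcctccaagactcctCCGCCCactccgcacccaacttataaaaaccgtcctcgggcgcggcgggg

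The third comparison set set 6 against set 2, with treatment as a term. Members again lay more often on the higher side, by less: 17 of 30 were called, where 48.2% of all genes were, 15 of them higher (20.9% of all genes) and 2 lower (27.3%). Both set 6 libraries lay above both of set 2 in 18 of 31 genes, where 33.2% of all genes did, and below them in 7, where 38.7% did. The median member differed by 0.22 and the median of all genes by -0.04. The hepatocyte and hepatoma markers went the other way, summing to 3212 and 3585 FPKM in set 2 against 1488 and 1445 in set 6, and their part in the result was not tested. Median-of-ratios scaling moved the median of all genes to 0.13 and the share of higher genes among those called from 43.4% to 62.5%. It called 54.7% of all genes, and gave 18 members higher and 0 lower. Leaving out a single library of any set lowered the number of all genes called. It also lowered that of members called, except without NC of set 2. The fewest calls were left without either library of set 6.

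PPARA had the largest difference of the 30 on the log2(FPKM + 1) scale, 1.68 and 1.92 FPKM in set 2 against 3.86 and 4.49 in set 6, a log2 difference of 0.88 (SE 0.123, adjusted p = 0.00307 by limma). ANGPTL4 was higher in set 6 too, by 0.63, and PPARGC1A was lower, by -0.51, with 3.17 and 4.56 in set 2 against 2.10 and 2.70. PDK4, at 1.45 and 1.80 against 0.954 and 1.37, was not called. PPARA and PPARGC1A thus parted in both set comparisons, while ANGPTL4 was lowest in set 5 and highest in set 6.

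Among the enzymes, HADHA was at 40.6 and 44.7 FPKM in set 2 and at 66.3 in both libraries of set 6, a log2 difference of 0.63 (SE 0.0704, adjusted p = 0.00174 by limma). HADHB, at 47.4 and 55.7 against 54.6 and 54.3, was not called here either. ACADS was higher by 0.61, CPT1A by 0.58, ETFB by 0.55, ACADVL by 0.42, SLC25A20 and ETFA by 0.41 each and ECI2 by 0.39. ACAA1, at 88.5 and 82.8 in set 2 against 68.4 and 71.2 in set 6, was lower by -0.29. ACAA2, EHHADH and ACADSB, among the genes that differed most in set 5, overlapped between sets 2 and 6.

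Several of these calls were lost when 1 library was left out. Each such fit keeps 1 residual degree of freedom in place of 2, so a lost call need not be due to that library. Those of CPT1A and ECI2 were lost without the NC library of set 6, with log2 differences then of 0.44 and 0.34. Those of ACADVL and ANGPTL4 were lost without its NACER_ASO library, at 0.36 and 0.53. The call of ACAA1 was lost in 5 of 6 such omissions, over which its difference ran from -0.38 to -0.20, and stood only without the NACER_ASO library of set 2. The call of PPARGC1A was lost in 3 of 6, without either library of set 6 or the NACER_ASO library of set 2, where it was -0.36.

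At the level of single transcripts, 73 RefSeq transcripts carried these symbols, 2 of them at 0 throughout, and 52 were tested. Between the groups 0 were called (0% of 23390 transcripts by limma; 1 member transcript had an unadjusted p below 0.05). In set 5, 21 were called (35.3% of all transcripts), 17 higher (11.8%) and 4 lower (23.5%). In set 6 against set 2, 6 were called (9.71%), 5 higher (4.35%) and 1 lower (5.36%). Leaving out any 1 of the 6 libraries lowered the counts of both set comparisons. Each such fit keeps 1 residual degree of freedom in place of 2, so the fall cannot be put down to the library left out.

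Among the transcripts called, one of HSD17B4 had the largest difference on the log2(FPKM + 1) scale in both set comparisons. This transcript, NM_001292028, was at 0.574 and 0.252 FPKM in NC and NACER_ASO of set 2, at 42.2 and 45.6 in set 5 and at 19.4 and 21.1 in set 6. NM_001199291, which has the same ends, was at 19.0 and 27.9 in set 2, at 16.2 and 13.7 in set 5 and at 10.9 and 10.2 in set 6. Nearly all of the first was thus missing from set 2, in both libraries, while the second was highest there. By limma NM_001292028 differed by 3.04 in set 5 (SE 0.143, adjusted p = 0.00155) and by 3.92 between sets 6 and 2 (SE 0.165, adjusted p = 0.0191). NM_000414, which starts at 118788138 where the first starts at 118788192, was at 7.42 and 6.16 in set 2, at 23.9 and 23.1 in set 5 and at 9.91 and 11.3 in set 6. The estimate divides reads among isoforms that share most of their length, so the split is less certain than the sum. HADH had the 1 transcript called lower between sets 6 and 2, NM_001331027, by -1.38 (SE 0.23, adjusted p = 0.0428 by limma).

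**Figure D4:**
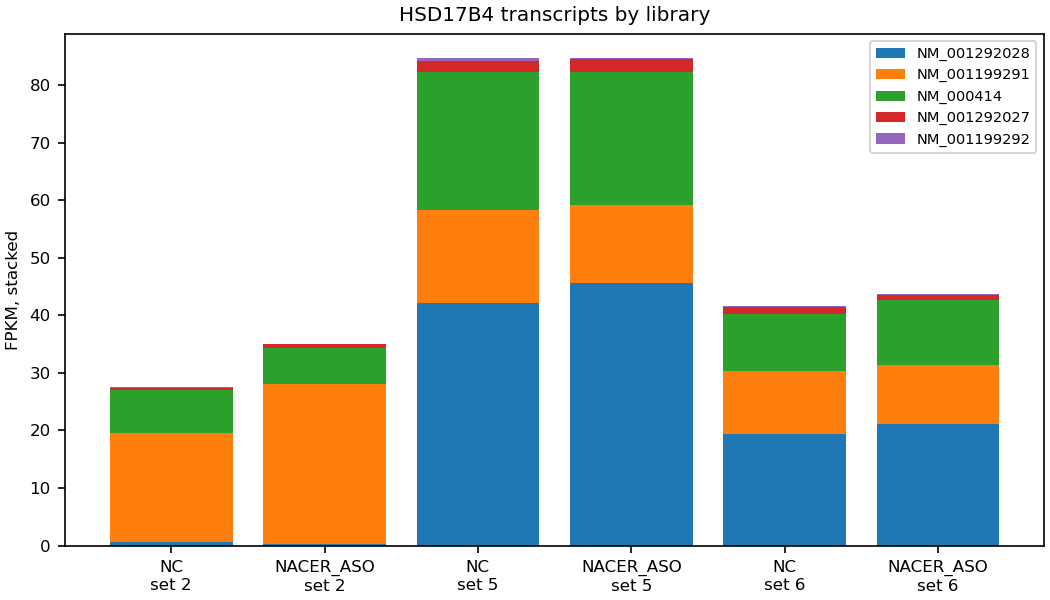
FPKM of the 5 HSD17B4 transcripts in each library, stacked to the gene's sum. NM_001292028, the lowest band, is close to 0 in both set 2 libraries, at 42.2 and 45.6 in set 5 and at 19.4 and 21.1 in set 6.

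Of 88 other genes of the pathway and its control, chosen by role, 74 were tested. Between the groups 0 were called by limma, and 30 of 74 lay on the higher side in all 3 sets (27.2% of all genes) and 6 on the lower (11%). Among those with the smallest p were the malonyl-CoA decarboxylase MLYCD, with a log2 difference of 0.35, and the phytanoyl-CoA hydroxylase PHYH, with 0.23. In set 5, 38 of 74 were higher, where 24.1% of all genes were, and 21 lower, where 46.6% were. FABP1, the fatty acid binding protein of liver cytosol, was at 827 and 952 FPKM in set 5 against 13.3 to 30.6, a log2 difference of 5.25 (SE 0.113, adjusted p = 2.02e-06 by limma). SLC27A2, which takes up and activates long and very long chains, was at 24.5 and 25.1 against 0.281 to 1.09. ACOT9, a mitochondrial thioesterase, was at 5.36 and 5.99 against 15.7 to 30.8. Of the 9 genes of uptake and activation tested, among them FABP1 and SLC27A2, 5 were higher and 3 lower in set 5.

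Between sets 6 and 2, 15 of the 74 were higher, or 20.3% against 20.9% of all genes, and 13 were lower, or 17.6% against 27.3%. ACSL3, which activates long chains, was at 69.0 and 70.1 FPKM in set 2 and at 29.4 and 28.1 in set 6, a log2 difference of -1.25. CREB3L3, a liver transcription factor of the fasting response, was at 15.1 and 16.8 in set 2 and at 31.6 and 34.9 in set 6, and ACOT9 was higher in set 6 by 0.88.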

How the data were processed

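An Illumina TruSeq Stranded mRNA LT kit turned 1 ug of Trizol-extracted RNA into each library, per the labels' protocols. The authors deposited FPKM values for RefSeq transcripts on hg19, per the file headers; FastQC 0.11.5, Bowtie2 2.2.6 and StringTie 1.3.3b are named in the submitters' processing notes, with their roles not given in the sources used here. Transcript lengths, also deposited, served only for the depth estimate. As FPKM is relative to its library, a shift of total RNA per cell cannot show in it. Between 32.4% and 47.2% of low values came within 2% of whole multiples of what 1 fragment is worth, so whole reads were not recovered, no count model was fitted and the depths are rough.

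FPKM was summed per symbol. A gene was tested if 3 or more libraries had 1 FPKM or more (13576 genes), on log2(FPKM + 1), which understates differences of low genes, with limma 3.58.1 (R 4.3.3, mean-variance trend, two-sided, Benjamini-Hochberg at 0.05): group alone for NACER_ASO against NC, and set plus treatment for the set comparisons. Nothing states that libraries came from separate cultures, and p-values therefore reflect only how these libraries vary, which may be technical. The set numbers were taken as pairs because same-set libraries correlated above 0.1 in every set (lowest 0.90). The scripts were tested on simulated data, in which the fit by group alone recovered 0% of log2 changes of 1 and 39% of those of 2. That fit could thus miss such changes. With the replicate block, 100% of both were recovered, but the simulated noise took its spread from a fit with set and group. Changes as small as those of the members, at most 0.32 between the groups, were not simulated. The members, the lists and the tests were chosen with earlier results of these data known. Test values are given, between the groups and in both set comparisons, for CPT1A, PPARA, PPARGC1A, BDH1, PDK4 and ANGPTL4 and for members with the smallest p (between the groups up to 10 on 1 side in all 3 sets; between sets up to 10 called in each direction), for the 3 other pathway genes with the smallest p (1 of them, between the groups, is not reported here) and for called transcripts. Other members are given by FPKM and call, except HADHA, HADHB and ETFA in set 5, whose differences were added after their values were seen. Alternatives were the pseudocount, the filter, the scaling, the most abundant transcript, omission of each library or set, and the replicate block.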

Additional observations from a re-analysis of the deposited data

How the results depend on the processing

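Between the groups, 0 of the members were called under any alternative run. With the set number as a replicate block 0 genes were called; with the block and without set 5 the count over all genes was 13, and without set 6 it was 95, none of them members. Of the 30 members, 29 had a positive difference, where 63.3% of all genes did. The count was 22 with median-of-ratios scaling, 25 with quantile normalization and 24 with the most abundant transcript. Over omissions of 1 library it ran from 12 of 30, without NACER_ASO of set 5, to 26 of 29, without NACER_ASO of set 2. Of the genes whose test values are given, apart from omissions of 1 library, signs turned for PPARA with quantile normalization (-0.0051) and for ANGPTL4 with the block and without set 5 (0.0074). Leaving out 1 library at a time, which unbalances the sets, gave log2 differences from -0.33 to 0.43 for PPARA, -0.57 to 0.51 for ANGPTL4, -0.34 to 1.08 for EHHADH, -0.10 to 0.23 for ECI2, -0.35 to 0.91 for PPARGC1A, -0.15 to 0.57 for PDK4 (over 3 omissions, the others leaving it under the filter), -0.049 to 0.81 for ACADSB and -0.15 to 0.62 for ACAA2.

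In set 5 the count of members called ran from 18 to 24 over these omissions and that of member transcripts from 8 to 20. Without a library of set 2 or 6, between 66.7% and 73.3% of all genes were called. Fewer were called without a library of set 5, which leaves 1 there. The member counts by themselves thus do not set the members apart from all genes. For the transcript counts, no share of all transcripts is given. CPT1A turned to 0.020 with median-of-ratios scaling, 0.072 with quantile normalization and 0.084 against set 2 alone, the last added after seeing the data. Against set 6 alone, also added then, 14 members were higher in set 5 and 6 lower, with 64.3% of all genes called. Between sets 6 and 2, the genes called were 4310 with a filter of 5 FPKM and 3752 with the most abundant transcript of each gene, which also left 8 members called. Omissions gave 4364 to 5961 genes, 8 to 18 members and 0 to 0 member transcripts, and PDK4 turned to 0.062 with quantile normalization. Among the genes whose test values are given, counted under each alternative, a call was lost 12 times in set 5 and 25 times between sets 6 and 2, and gained 2 times in set 5; the cause was not tested. Counts are not given here for every alternative run. Values below about 1 FPKM are limited by depth.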
